A study of Mus musculus with 11 samples.

Results

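The genes described here are those expressed in wild-type (WT) mouse embryonic stem cells (ESCs) before and after 4 h with α-amanitin. The comparison sets 2 ribodepleted total RNA libraries at 4 h in 10 µg/ml α-amanitin against 2 ribodepleted libraries labelled as not treated at 0 h. Of 23284 genes listed in the files, 12134 had a mean above 1 TPM (transcripts scaled to a fixed total per library, a length-corrected share) over these 4 libraries and were tested. They were kept in 2 classes: 11794 longer features, which are mRNAs and long noncoding RNAs (lncRNAs), and 340 short features, which carry microRNA, small nucleolar RNA (snoRNA) or other structured RNA symbols or, for 10 of them, are only shorter than 200 bases. The cells were WT for the 3 Tet genes and were grown in serum with leukemia inhibitory factor (LIF) on gelatin. The protocol in the labels names water as the vehicle, but no 4 h vehicle group is among the libraries, so the drug and 4 h in culture cannot be told apart. The series also holds 4 libraries of Tet1/Tet2/Tet3 triple-knockout (TKO) ESCs at the same times and 3 WT polyA libraries. The TKO libraries entered the fit only to share its estimate of the spread between replicates. The study's methods describe the libraries of a group as biological duplicates.

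α-Amanitin is a fungal toxin that binds RNA polymerase II, and more weakly RNA polymerase III, and leaves RNA polymerase I largely active. Once synthesis is blocked, an RNA declines at the rate of its own decay, so short-lived RNAs drop first and long-lived RNAs take up a growing share of what is left. Short-lived mRNAs are typical of immediate-early genes and of signalling feedback genes, whereas mRNAs of ribosomal proteins and metabolic enzymes are typically long-lived. Many snoRNAs and microRNAs are cut from the introns or primary transcripts of longer RNAs, and RNase P and RNase MRP RNAs are made by RNA polymerase III.

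The 4 libraries held between 27262994 and 27652101 reads, recovered from the steps of the TPM values. All 8 ESC markers were present in each library, from at least 32.5 scaled TPM for Nanog to at least 1531 for Dppa5a, where scaled TPM is the deposited TPM divided by a library size factor. Markers of other cell types were also present. The summed level of 14 fibroblast markers, of which 8 had a mean over 1 TPM, was 138 and 158 TPM at 0 h and 139.2 and 150.2 TPM at 4 h, and that of 12 trophectoderm markers, of which 6 were over 1 TPM, was 193 and 224 TPM at 0 h and 199 and 217 TPM at 4 h. These ranges overlapped between times, whereas 14 primitive endoderm markers, of which 7 were over 1 TPM, summed to 287 and 294 TPM at 0 h and to 298 and 326 TPM at 4 h. No marker in these 3 lists was at 0 in all 4 libraries. The RNase RNAs Rmrp and Rpph1 took 12.9% and 13.4% of the TPM at 0 h and 14.7% and 14.5% at 4 h. Because TPM is a share, a loss common to all RNAs cannot be seen in these files, and every fall or rise below is relative to the rest of the library. In bulk RNA, fewer cells of a type and less RNA per cell cannot be told apart.

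At 4 h, far more longer features had fallen than risen by over 1.5-fold. limma called 127 of the 11794 longer features lower (1.08%) and 7 higher (0.0594%), at a Benjamini-Hochberg adjusted p under 0.05 and over 1.5-fold. Without a limit on size, 1849 longer features were lower (15.7%) and 2695 were higher (22.9%), so that small rises outnumbered small falls. In 3818 longer features both 4 h libraries lay below both 0 h libraries (32.4%), and in 4943 both lay above (41.9%). The median change of the longer features was 0.03 on the log2 scale, and class medians below are given relative to it. Leaving out 4 h replicate 1 reduced the counts to 81 called lower, 1 called higher, and 259 lower and 112 higher at any size.

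The split between rises and falls depended on how the libraries were scaled. Among longer features past the adjusted p, 59.3% were higher with size factors and 54.0% with quantile normalisation. The share was 12.03% with the deposited TPM as they stand and 0.188% with scaling to RNA polymerase III RNAs, which include Rmrp and Rpph1. That last scaling lowered the median longer feature to -0.24. Among called longer features, the share that was higher was 5.22% with size factors and 23.2% with quantile normalisation. A rise in the text therefore means a growing share relative to the typical transcript.

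**Figure D1:**
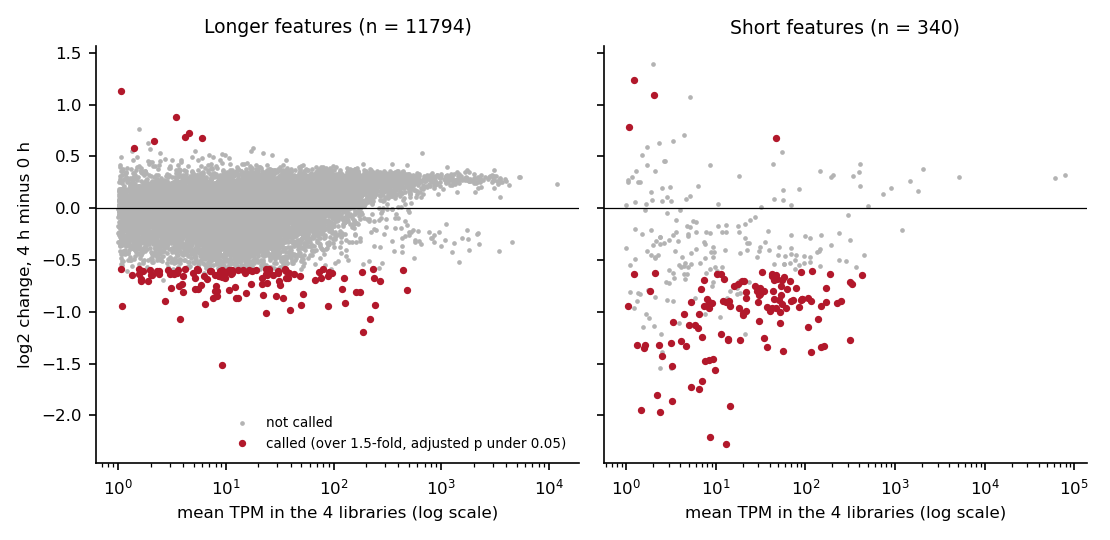
Log2 change at 4 h against mean TPM (log scale) for 11794 longer features (left) and 340 short features (right), WT libraries, each point a gene, with changes relative to the size factors. Called longer features lie almost all below 0, features above about 100 TPM lie mostly above 0, and 124 short features were called lower. Under scaling to RNA polymerase III RNAs the whole cloud moves down, with its longer-feature median at -0.24.

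The largest falls were in lncRNAs, snoRNA host RNAs and genes of signalling pathways. The 12 longer features with the largest called falls above a mean of 5 TPM include 8 RNAs that RefSeq lists as lncRNAs or that belong to the snoRNA host list. The lncRNA 2900060B14Rik had 14.4 and 13.7 scaled TPM at 0 h and 3.99 and 4.60 at 4 h, a log2 change of -1.51 ± 0.08 (SE of the fit, 2 libraries per time, adjusted p = 0.00017). D7Ertd143e, an lncRNA whose RefSeq span contains Mir291a to Mir295 of the Mir290 cluster, had 267 and 266 scaled TPM at 0 h and 113 and 119.5 at 4 h (log2 change -1.19 ± 0.10, adjusted p = 0.0011). For both RNAs the times did not overlap and the 2 replicates of a time lay close together.

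Snhg5, a snoRNA host RNA on chromosome 9 (chr9:88415894-88417721), had 289 and 314 scaled TPM at 0 h and 146 and 141 at 4 h (log2 change -1.06 ± 0.09, adjusted p = 0.0012). Gas5 (chr1:162964553-162968670), which carries several snoRNAs in its introns, went from 322 and 327 to 171 and 169 scaled TPM (-0.93 ± 0.08, adjusted p = 0.0012). The annotated Neat1, the RNA that scaffolds nuclear paraspeckles (chr19:5824708-5845478), went from 74.6 and 58.1 to 35.0 and 32.8 scaled TPM (-0.94 ± 0.18, adjusted p = 0.0083). These 3 RNAs were lower in both 4 h libraries than in either 0 h library, and the 0 h replicates were farthest apart for Neat1. The other noncoding members of the 12 were 2700023E23Rik, named Dancr in RefSeq (-0.98 ± 0.08), 1500012F01Rik, named Zfas1 (-0.91 ± 0.10), and Kis2 (-0.87 ± 0.11).

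Of the coding genes among the 12, Lefty1, a secreted Nodal antagonist (chr1:182865153-182868531), had 116 and 122 scaled TPM at 0 h and 61.1 and 61.3 at 4 h (-0.95 ± 0.10, adjusted p = 0.0022). Cyr61, a matricellular protein and YAP target (chr3:145309935-145312949), had 28.1 and 37.5 at 0 h and 15.1 and 16.1 at 4 h (-1.01 ± 0.12, adjusted p = 0.0033). Each thus stood at about the same level in both 4 h libraries. The remaining 2 were Ncrna00085, listed as Spaca6 in RefSeq (-0.92 ± 0.15), and Rps27 (-0.87 ± 0.11). An annotated exon of Ncrna00085 overlaps the microRNA feature Mir125a. Rps27 had between 40 and 90 reads per library, and its value is uncertain because ribosomal protein mRNAs have near-identical pseudogene copies.

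Called rises were few and mostly in weakly expressed genes. Only Acta1, skeletal muscle actin, passed the call above 5 TPM, with 3.85 and 5.38 scaled TPM at 0 h and 8.05 and 7.77 at 4 h (0.68 ± 0.14, adjusted p = 0.0086). Its reads ranged from 80 to 155 per library, and actin genes share sequence. The other 6 called rises, chosen after their values were seen, had a mean TPM between 1 and 5: 1700001K19Rik (1.14 ± 0.20), A330069E16Rik (0.88 ± 0.16), Mt3 (0.73 ± 0.22), 2610005L07Rik (0.69 ± 0.12), Otud6a (0.64 ± 0.15) and Fkbp6 (0.59 ± 0.14). None of the 7, Acta1 included (adjusted p = 0.055), was called without 4 h replicate 1.

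**Figure D2:**
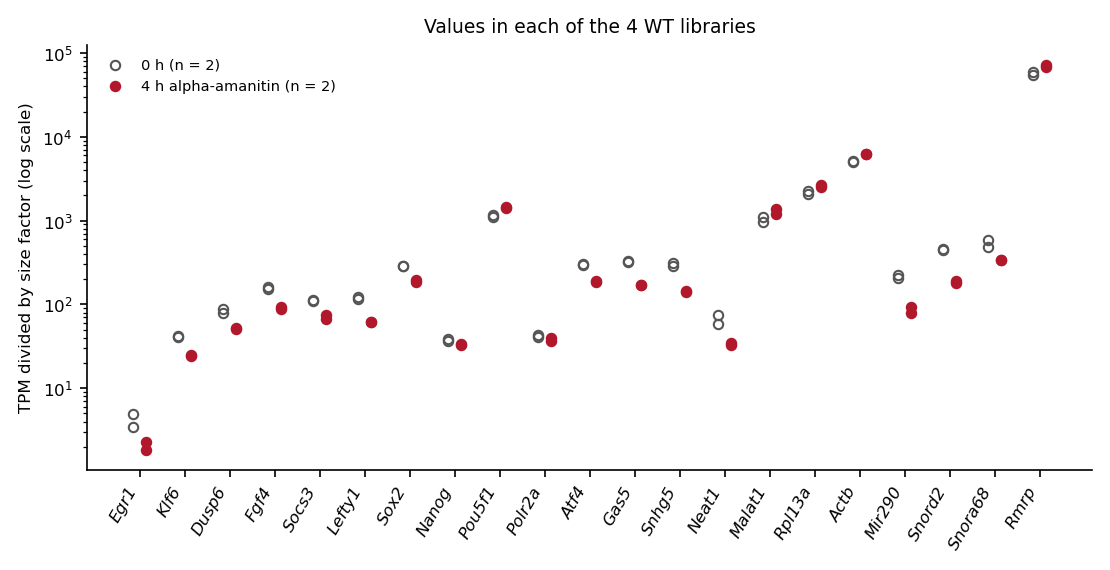
Scaled TPM (log scale) in each of the 4 WT libraries for 21 genes, with open circles for 0 h and filled circles for 4 h, 2 libraries each. The 4 h points of Klf6, Fgf4, Lefty1, Sox2, Atf4, Gas5, Mir290 and Snord2 lie below both 0 h points, Pou5f1, Malat1 and Actb lie above, and the points of Nanog and Polr2a lie closest together.

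Immediate-early genes, which are switched on within minutes of a stimulus and whose mRNAs are quickly removed, were among the classes that fell. Of 25 tested members, 19 were lower at any size, 0 were higher, and 4 were called lower. In 21 of the 25 both 4 h libraries lay below both 0 h libraries, and in 2 both lay above. Among all longer features these shares were 32.4% and 41.9%, beside 15.7% lower, 22.9% higher and 1.08% called lower. The median of the class was -0.46 relative to all longer features and lay between -0.53 and -0.31 in the 4 pairings of a 4 h with a 0 h library. Klf6, a zinc finger transcription factor (chr13:5860735-5869639), had 40.7 and 41.9 scaled TPM at 0 h and 24.6 and 24.0 at 4 h (-0.74 ± 0.08, adjusted p = 0.002). Egr1, which encodes another such factor, had 4.98 and 3.48 at 0 h and 2.28 and 1.81 at 4 h (-0.77 ± 0.14, adjusted p = 0.0075). The serum-responsive kinase gene Sgk1 went from 217 and 234 to 142 and 152 (-0.61 ± 0.08, adjusted p = 0.0038). The AP-1 genes Fos (-0.42 ± 0.11, adjusted p = 0.02) and Jun (-0.46 ± 0.09, adjusted p = 0.0078), chosen after their values were seen, fell by less than 1.5-fold. With 4 h replicate 1 left out, 6 of the 25 passed as lower.

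Targets of the YAP-TEAD transcription factors, which respond to cell shape and contact, had 8 of 17 members lower and 0 higher (median -0.22). The shares of all longer features were 15.7% and 22.9%. Besides Cyr61, Ctgf, another matricellular protein gene, was called lower, from 39.3 and 51.1 to 22.5 and 25.9 scaled TPM (-0.87 ± 0.13, adjusted p = 0.0052). The class median ranged from -0.26 to -0.18 over the library pairings. Without 0 h replicate 1, 4 of the 17 passed as lower.

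Members of the growth factor pathways are counted here beside 15.7% lower, 22.9% higher and 1.08% called lower among all longer features. For fibroblast growth factor (FGF) and ERK signalling, 9 of 16 members were lower and 2 were higher, with a median of -0.34. The ligand Fgf4 (chr7:152047291-152051148) had 152 and 159.5 scaled TPM at 0 h and 87.3 and 93.9 at 4 h (-0.78 ± 0.09, adjusted p = 0.0027). The ERK phosphatase gene Dusp6 went from 80.1 and 88.7 to 50.8 and 52.9 (-0.69 ± 0.09, adjusted p = 0.0037), and the inhibitor gene Spry2 from 96.3 and 99.3 to 59.7 and 70.6 (-0.58 ± 0.08, adjusted p = 0.0052). The 2 members that rose were the Ets factors Etv4 (0.38 ± 0.05) and Etv5 (0.16 ± 0.04). Relative to the median of longer features, Etv5 stood at -0.018 under quantile normalisation. Without 4 h replicate 1, 5 members were lower and 1 was higher.

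In the BMP and Id list, 6 of 13 were lower and 1 was higher (median -0.25). Over all longer features, the shares were 15.7% and 22.9%. Bmp4, a ligand, went from 39.8 and 39.7 to 24.4 and 23.7 scaled TPM (-0.70 ± 0.07, adjusted p = 0.002), the pseudoreceptor gene Bambi changed by -0.64 ± 0.13 and the inhibitor gene Id3 by -0.56 ± 0.09. In the Nodal list 7 of 17 were lower and 2 were higher (median -0.15), among them Nodal itself, from 51.9 and 54.6 to 34.8 and 39.8 (-0.50 ± 0.09, adjusted p = 0.0073). In the LIF-STAT3 list 8 of 14 were lower and 2 were higher (median -0.21). The feedback inhibitor gene Socs3 went from 109.5 and 114 to 67.7 and 74.1 (-0.65 ± 0.08, adjusted p = 0.0033), and the kinase gene Pim3 changed by -0.61 ± 0.08. In the Wnt list 7 of 20 were lower and 3 were higher (median -0.15), none of them called. Leaving out 1 WT library lowered these counts of falls to 1 in the BMP, Nodal and Wnt lists (4 h replicate 1) and to 2 in the LIF-STAT3 list (0 h replicate 1).

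Smaller shares fell in the Notch and Hes list, with 2 of 13 lower and 1 higher, the NF-kB feedback list, with 3 of 10 lower and 1 higher, and the circadian clock list, with 1 of 13 lower and 0 higher. These shares can be read against 15.7% lower and 22.9% higher among all longer features. Hes1, a Notch target, was the 1 called gene of the 3 lists (-0.59 ± 0.11, adjusted p = 0.0078). With single WT libraries left out, as few as 0 members of each of the 3 lists passed as lower.

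Pluripotency transcription factors split, with 11 of 22 lower, 3 higher and 3 called lower (median -0.29). Of all longer features, 15.7% were lower, 22.9% higher and 1.08% called lower. Sox2 (chr3:34548927-34551383) had 285 and 286 scaled TPM at 0 h and 184 and 195 at 4 h (-0.59 ± 0.08, adjusted p = 0.004). Klf2 went from 117 and 123 to 70.2 and 85.6 (-0.63 ± 0.10, adjusted p = 0.0057), and Foxd3 from 16.5 and 21.01 to 10.1 and 13.5 (-0.63 ± 0.14, adjusted p = 0.012). Pou5f1, which encodes Oct4 (chr17:35642982-35647721), had 1115 and 1180.0 at 0 h and 1470.4 and 1414 at 4 h, a rise of 0.33 ± 0.08 (adjusted p = 0.013). Sox2 and Pou5f1, whose proteins bind DNA together, thus moved in opposite directions with no overlap between times. Nanog had 38.7 and 37.0 at 0 h and 32.5 and 34.2 at 4 h and did not pass (-0.18 ± 0.08, adjusted p = 0.11). With 4 h replicate 1 left out, 3 of the 22 passed as lower and 0 as higher.

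A list of other ESC-specific markers had 1 of 19 members lower and 8 higher, beside 15.7% and 22.9% of all longer features (class median 0.07). The median turned to -0.07 under quantile normalisation. The 1 that fell was Fgf4, which is also in the FGF and ERK list. Dppa5a, an RNA-binding protein gene of ESCs, went from 1531 and 1621 to 2029 and 1846 scaled TPM (0.30 ± 0.08, adjusted p = 0.023). In the fit that lacked 4 h replicate 1, 0 of the 19 passed as higher.

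The 3 Tet genes, whose proteins oxidise 5-methylcytosine, did not pass the adjusted p. Tet1 had 142 and 123 scaled TPM at 0 h and 121 and 117 at 4 h (-0.15 ± 0.10, adjusted p = 0.27), Tet2 had 55.1 and 47.8 and then 45.0 and 44.2 (-0.20 ± 0.10, adjusted p = 0.13), and Tet3 had 1.41 and 1.48 and then 1.18 and 1.16 (-0.17 ± 0.10, adjusted p = 0.21). All 3 were lower in both 4 h libraries, which also held for 32.4% of longer features. Eed and Jarid2, which encode subunits of the Polycomb repressive complex PRC2, and Dab1, which encodes an adaptor of reelin signalling, are transcripts named in the study's own work on RNA stability. Eed had 287 and 281 at 0 h and 302 and 297 at 4 h (0.07 ± 0.04, adjusted p = 0.19), Jarid2 had 203 and 180.4 and then 215 and 208 (0.14 ± 0.06, adjusted p = 0.079), and Dab1 had 3.69 and 4.41 and then 4.35 and 3.86 (0.02 ± 0.10, adjusted p = 0.9). The de novo methyltransferase genes Dnmt3a (0.33 ± 0.05) and Dnmt3b (0.33 ± 0.05) rose, and of the 17 tested Tet, Dnmt and cofactor genes 7 were higher and 0 lower. The shares of all longer features were 22.9% and 15.7%. When 4 h replicate 1 was left out, 2 of the 17 passed as higher.

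Zinc finger protein genes were the largest class of coding genes that fell. Of 321 tested genes with Zfp symbols, 219 were lower (68.2%), 4 were higher and 15 were called lower, and both 4 h libraries lay below both 0 h libraries in 283. Among all longer features 15.7% were lower, 22.9% higher and 1.08% called lower, and 32.4% had both 4 h libraries below. The class median was -0.39 and ranged from -0.41 to -0.35 over the 4 library pairings. Zfp954 went from 13.7 and 14.1 to 7.27 and 8.02 scaled TPM (-0.79 ± 0.07, adjusted p = 0.0015), Zfp819 from 29.3 and 32.8 to 18.8 and 17.9 (-0.73 ± 0.07, adjusted p = 0.002) and Zfp869 from 45.5 and 45.0 to 27.4 and 28.5 (-0.68 ± 0.07, adjusted p = 0.002). In all 3 the replicates of a time differed far less than the times. Without 4 h replicate 1, 34 of the 321 passed as lower. Among other regulators, Myc, which drives growth, went from 34.8 and 33.8 to 21.1 and 22.1 (-0.64 ± 0.07, adjusted p = 0.002), and 4 of 12 genes of its network were lower and 0 higher (2 without 0 h replicate 1).

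Replication-dependent histone genes, whose mRNAs lack a poly(A) tail, fell as well, with 43 of 61 lower, 0 higher and 3 called lower (median -0.30). Both 4 h libraries lay below both 0 h libraries in 54 of the 61, compared with 32.4% of all longer features. Over all longer features 15.7% were lower, 22.9% higher and 1.08% called lower. The most abundant, Hist1h4d, had 5045 and 5328 scaled TPM at 0 h and 4107 and 4156 at 4 h (-0.33 ± 0.08, adjusted p = 0.013), and the linker histone gene Hist1h1d had 528 and 565 and then 352 and 367 (-0.60 ± 0.05, adjusted p = 0.0012). Histone genes of a type share near-identical sequence, so values of single genes are uncertain. The 11 polyadenylated histone variants moved the other way, with 7 higher and 0 lower (median 0.22, but 0.04 under quantile normalisation). H3f3a, which encodes H3.3, went from 354 and 361 to 442 and 424 (0.28 ± 0.05, adjusted p = 0.0076). With 4 h replicate 1 left out, 8 of the 61 replication-dependent genes passed as lower and 0 of the 11 variants as higher.

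The integrated stress response list, which groups targets of the transcription factor ATF4, was divided, with 8 of 23 lower and 11 higher (median -0.01). Counts of this and the following stress lists stand beside 15.7% lower and 22.9% higher among all longer features. Atf4 itself (chr15:80085614-80087970) went from 303 and 296 to 183 and 190.1 scaled TPM (-0.68 ± 0.06, adjusted p = 0.0012). The stress regulator gene Ddit3 went from 10.7 and 11.4 to 5.73 and 5.63 (-0.85 ± 0.07, adjusted p = 0.0011), and the glutathione-degrading enzyme gene Chac1 from 11.6 and 10.4 to 5.17 and 6.63 (-0.80 ± 0.12, adjusted p = 0.0052). The members that rose most were enzymes of serine and cysteine synthesis: Cth (0.33 ± 0.05), Psph (0.33 ± 0.08) and Psat1 (0.33 ± 0.06). In the p53 list 8 of 25 were lower and 1, Trp53 itself, was higher (0.25 ± 0.05). The p53 target Cdkn1a, a cell cycle inhibitor, fell by less than 1.5-fold, from 4.93 and 4.90 to 3.09 and 3.78 (-0.42 ± 0.09, adjusted p = 0.0091). In the Bcl2 family 4 of 15 were lower and 1 higher (median -0.12), led by the survival gene Mcl1, from 272 and 279.7 to 211 and 217 (-0.37 ± 0.05, adjusted p = 0.004). Heat shock chaperones had 1 of 23 lower and 10 higher (median 0.12, and 0.01 under quantile normalisation). In the fit that lacked 4 h replicate 1, 4 were lower and 2 higher in the ATF4 list, 1 was lower in the p53 list, and 0 heat shock genes were higher. Without 0 h replicate 1, 1 Bcl2 family gene was lower.

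Cell cycle genes were mixed, beside 15.7% lower and 22.9% higher among all longer features. Of 23 cyclins and CDK inhibitors 6 were lower and 6 higher, with Ccnl1, a cyclin of splicing kinases, called lower (-0.65 ± 0.08, adjusted p = 0.0031) and Ccnd3 higher (0.38 ± 0.07, adjusted p = 0.0068). Of 34 DNA replication genes 3 were lower and 19 higher, and of 29 mitosis genes 2 were lower and 5 higher, with the anaphase inhibitor gene Fbxo5 lower (-0.53 ± 0.08, adjusted p = 0.0053). The 3 medians were -0.13, 0.12 and -0.01. When 4 h replicate 1 was left out, 0 DNA replication genes were higher and 1 cyclin or inhibitor was lower.

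The classes that persisted included those of the translation, energy and protein turnover machinery. Of all longer features over 100 TPM, whatever their class, 70.1% were higher, with a median of 0.19. Whether these classes differ from other genes of the same level was not tested. Of 82 cytosolic ribosomal protein genes, 61 were higher and 1, Rps27, was lower (median 0.24). All 20 tested aminoacyl-tRNA synthetases and all 8 subunits of the TRiC chaperonin were higher (medians 0.23 and 0.24), as were 72 of 81 nuclear-encoded subunits of the respiratory chain (median 0.27), 38 of 46 proteasome subunits (0.22) and 15 of 19 glycolysis genes (0.23). None of the members outside the ribosome was lower at the adjusted p, and no gene in these 6 classes was called higher. Mitochondrial ribosomal proteins had 37 of 76 higher and 2 lower (0.14).

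Individual changes were small and alike. Rps2 had 2608 and 3007 scaled TPM at 0 h and 3767 and 3494 at 4 h (0.37 ± 0.10, adjusted p = 0.021), and Cox6a1, a subunit of cytochrome c oxidase, had 302 and 324 and then 431 and 411 (0.43 ± 0.08, adjusted p = 0.0076). Vars, the valyl-tRNA synthetase gene, went from 152 and 147 to 191 and 199.8 (0.38 ± 0.06, adjusted p = 0.0052), and the proteasome gene Psmb3 from 347 and 373 to 476 and 446 (0.36 ± 0.07, adjusted p = 0.0084). Of the 5 most abundant longer features, Hist1h4d fell, as given above, and the others changed by similar amounts. Eef1a1, the elongation factor gene, changed by 0.24 ± 0.11 (adjusted p = 0.11), the β-actin gene Actb by 0.30 ± 0.09 (adjusted p = 0.031), the ribosomal stalk gene Rplp1 by 0.30 ± 0.10 (adjusted p = 0.041) and the nucleolar protein gene Npm1 by 0.23 ± 0.08 (adjusted p = 0.051). Translation factors had 37 of 61 higher and 4 lower (0.17), and Eif4a2, an RNA helicase gene that hosts snoRNAs in its introns, was called lower, from 350.0 and 339 to 212 and 210.5 (-0.70 ± 0.07, adjusted p = 0.002).

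These gains are modest and depend on scaling and on the libraries. Under quantile normalisation the class medians shrank to 0.03 for cytosolic ribosomal proteins, 0.11 for the respiratory chain, 0.06 for proteasome subunits and for aminoacyl-tRNA synthetases, 0.05 for glycolysis and 0.03 for TRiC. Over the 4 library pairings the median of the cytosolic ribosomal proteins ranged from 0.11 to 0.37. Without 4 h replicate 1, 1 ribosomal protein gene, 4 respiratory chain genes, 2 synthetases, 1 proteasome gene, 0 mitochondrial ribosomal protein genes, 1 translation factor gene, 0 glycolysis genes and 0 TRiC genes passed as higher.

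The transcription and RNA-processing machinery lay between these extremes. RNA polymerase II subunits had 8 of 13 higher and 0 lower (median 0.16, and 0.00 under quantile normalisation). Polr2a, which encodes the largest subunit, the one α-amanitin binds, was the 1 member with both 4 h libraries below both 0 h libraries, with 43.6 and 40.8 scaled TPM at 0 h and 37.0 and 39.8 at 4 h (-0.13 ± 0.06, adjusted p = 0.087). General factors, Mediator and elongation factors had 17 of 93 lower (18.3%) and 22 higher (23.7%), near the 15.7% and 22.9% of all longer features. Those lower include Taf1d (-0.53 ± 0.07) and Med26 (-0.50 ± 0.10). Proteins of the small nuclear ribonucleoproteins had 26 of 51 higher and 2 lower, and hnRNP proteins 17 of 29 higher and 1 lower. Of 18 SR splicing factors and their kinases 3 were lower and 4 higher (median 0.04), a share of falls near the 15.7% of all longer features. The 3 that fell were CDC-like kinases, which phosphorylate SR proteins. Clk1 went from 84.5 and 78.3 to 55.4 and 56.4 (-0.53 ± 0.09, adjusted p = 0.0065), and Clk4 changed by -0.44 ± 0.08 and Clk2 by -0.20 ± 0.06. With 4 h replicate 1 left out, 0 polymerase subunits, 0 snRNP genes and 1 hnRNP gene were higher, 3 general factors were lower and 2 higher, and 0 SR genes were lower.

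Chromatin complexes, decay factors and m6A genes completed the survey of longer features. Their counts stand beside 15.7% lower and 22.9% higher among all longer features. The BAF and NuRD remodelling complexes had 16 of 29 higher and 3 lower (median 0.14), PRC2 had 3 of 12 higher and 0 lower (0.07), and PRC1 had 3 of 20 higher and 3 lower (-0.07). The mRNA decay machinery had 11 of 49 lower and 14 higher (0.00), binding proteins of AU-rich elements and other stability factors 6 of 20 lower and 7 higher (-0.05), and m6A writers, readers and erasers 3 of 15 lower and 2 higher (-0.15). Sterol genes had 1 of 24 lower and 1 higher (0.06). Collagen and laminin genes had 6 of 19 higher and 0 lower (0.13), adhesion genes 6 of 39 higher and 2 lower (0.04), and lineage regulators, of which 10 of 28 were expressed above the limit, 3 lower and 0 higher (-0.20). None of 39 Hox genes passed 1 TPM. In the fit that lacked 4 h replicate 1, 3 BAF and NuRD genes, 0 PRC2 genes, 0 decay genes, 1 AU-rich element binding protein gene and 0 collagen and laminin genes were higher, and 2 decay genes, 0 AU-rich element binding protein genes and 0 lineage regulators were lower.

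**Figure D3:**
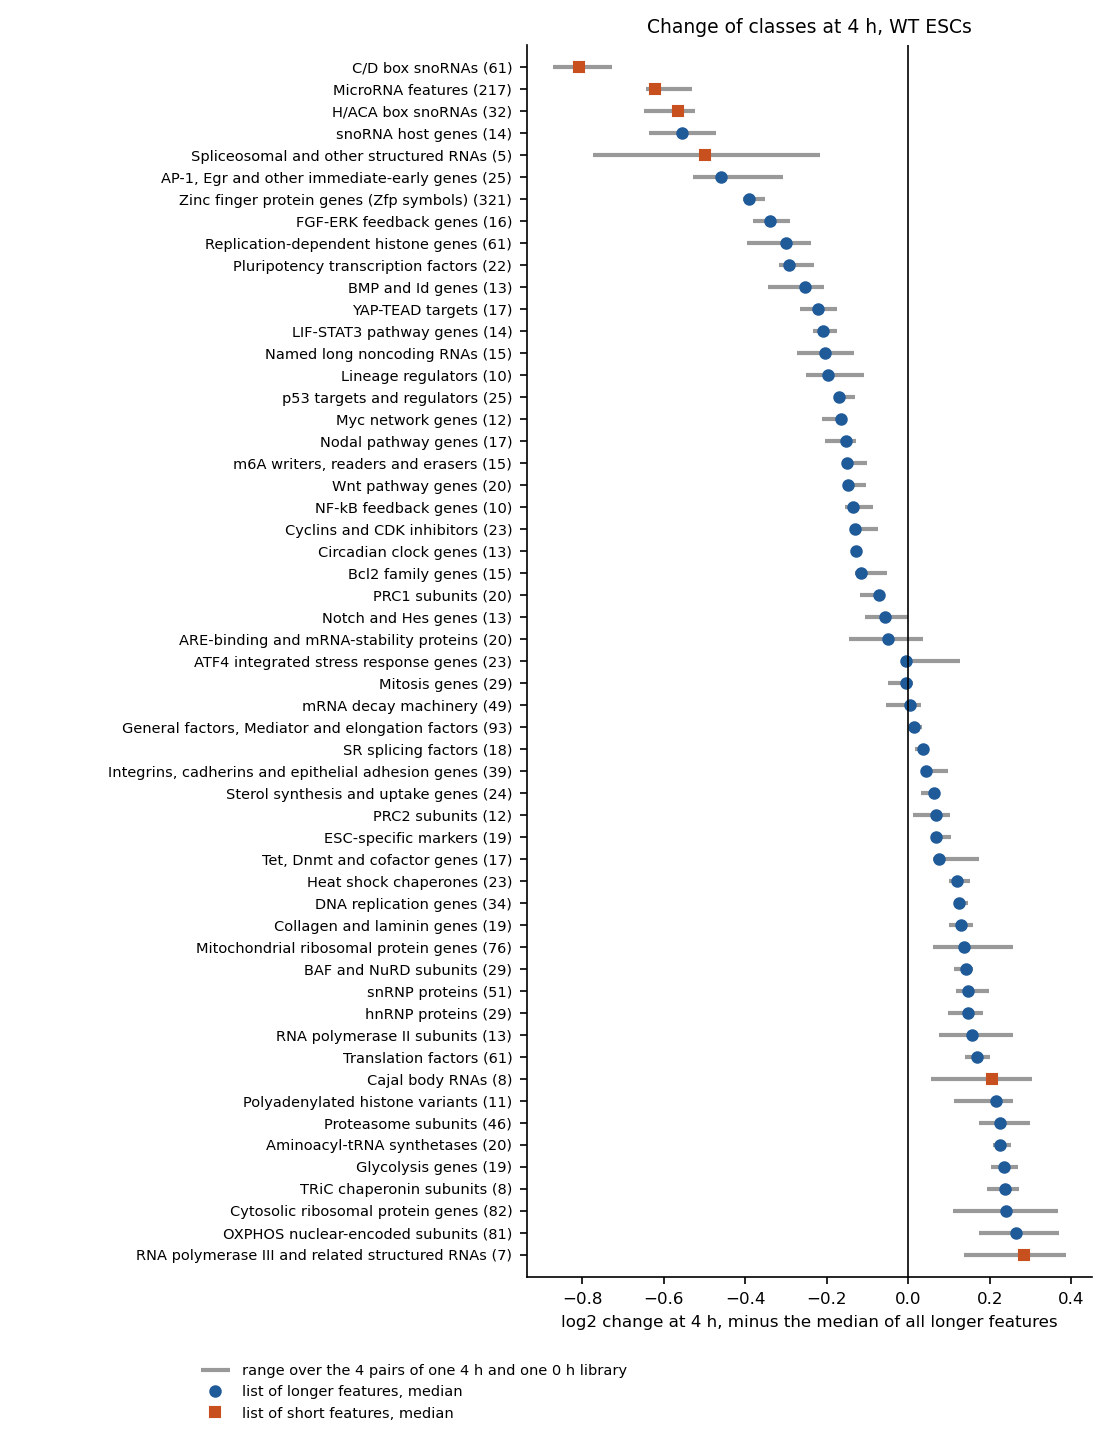
Median log2 change of each list at 4 h minus the median of all longer features, with the number of tested members in brackets, circles for longer features, squares for short features and bars for the range over the 4 pairs of a 4 h and a 0 h library. C/D box snoRNAs stand lowest at -0.81 and the RNA polymerase III list highest at 0.28, with immediate-early genes at -0.46 and cytosolic ribosomal proteins at 0.24. Under quantile normalisation the medians of most classes above 0 shrink to 0.11 or less.

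Noncoding RNAs fell more often than coding ones. Of 285 longer features that RefSeq lists as lncRNAs, 92 were lower (32.3%), 10 higher and 33 called lower, with a median of -0.24, whereas of 11370 protein-coding features 1732 were lower (15.2%), 2668 higher and 92 called lower, with a median of 0.01. When 4 h replicate 1 was left out, 31 lncRNAs and 226 coding features passed as lower. Named lncRNAs differed among themselves, with 6 of 15 lower and 2 higher (median -0.21). Mir17hg, the primary transcript of the Mir17-92 cluster (chr14:115442101-115445949), went from 70.0 and 67.6 to 38.1 and 38.3 scaled TPM (-0.83 ± 0.12, adjusted p = 0.0054). Dleu2 changed by -0.74 ± 0.11 (adjusted p = 0.0055). Malat1, an abundant nuclear RNA next to Neat1, had 1119 and 956 at 0 h and 1360.1 and 1214 at 4 h, a rise of 0.31 ± 0.09 (adjusted p = 0.024). Neat1 and Malat1, whose annotated genes are neighbours on chromosome 19, had changes of opposite sign. With 4 h replicate 1 left out, 2 of the 15 passed as lower and 0 as higher, and Malat1 had an adjusted p of 0.15, or 0.14 without 0 h replicate 2.

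The snoRNA host list was the longer class with the lowest median (-0.56), with 12 of 14 lower, 0 higher and 6 called lower. The list holds Rnu12, a short spliceosomal RNA, by its symbol, and without it 11 of 13 were lower. Between 10 and 11 of the 14 passed as lower with any 1 WT library left out. Snhg1 went from 635 and 619 to 370.2 and 357 scaled TPM (-0.78 ± 0.09, adjusted p = 0.0025) and Snhg12 from 206 and 212 to 125 and 113 (-0.81 ± 0.10, adjusted p = 0.0031). Outside the list, 2410006H16Rik, an lncRNA that contains 3 tested C/D box snoRNAs, went from 229 and 232 to 135 and 126 (-0.81 ± 0.07, adjusted p = 0.0011). In each of these hosts both 4 h libraries stood well below both 0 h libraries.

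Short features fell far more often than longer ones. Of 340 tested, 124 were called lower (36.5%) and 4 called higher (1.18%), and in 203 both 4 h libraries lay below both 0 h libraries (59.7%). The libraries were made from fragmented total RNA. The study's methods describe a size selection of library fragments that removed unligated adapters, and state no step to keep small RNA. Reads on a short feature can come from the mature RNA or from a longer RNA that contains it. The part of each, and the effect of the size selection on short RNAs, were not tested. Leaving out 4 h replicate 1 left 65 short features called lower.

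C/D box snoRNAs guide 2′-O-methylation of ribosomal RNA and H/ACA box snoRNAs guide pseudouridylation. Of 61 C/D box snoRNAs 41 were lower and 34 called lower (median -0.81), and of 32 H/ACA box snoRNAs 25 were lower and 13 called lower (median -0.57). No member of either class was higher. Among those with a mean of at least 20 reads, 31 of 50 and 13 of 31 were called lower. With 4 h replicate 1 left out, 25 and 15 passed as lower. The C/D box snoRNAs Snord2 and Snord104 and the H/ACA box snoRNA Snora41 fell and are shown first, and Snord17 and Snora23, chosen after their values were seen as longer members of the same classes that did not fall, follow. Capitals mark the first TGATGA (the core of the C box) and the last CTGA (the D box) in C/D box snoRNAs, and the last ACA in H/ACA box snoRNAs, all read on the RNA strand from NCBIM37 (mm9) at GENCODE positions. Snord2 holds no TGATGA in this span, so only its CTGA is marked.
Snord2 (chr16:23109026-23109094, plus strand, in Eif4a2): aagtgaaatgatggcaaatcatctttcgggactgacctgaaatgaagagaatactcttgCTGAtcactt
Snord104 (chr11:106362307-106362376, plus strand): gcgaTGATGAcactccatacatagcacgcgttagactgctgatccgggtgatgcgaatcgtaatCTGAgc
Snora41 (chr1:63225578-63225709, plus strand, in an intron of Eef1b2): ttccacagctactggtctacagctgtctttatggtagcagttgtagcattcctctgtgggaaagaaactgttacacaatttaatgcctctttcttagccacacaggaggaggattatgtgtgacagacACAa
Snord17 (chr2:144091715-144091952, minus strand, in an intron of Snx5): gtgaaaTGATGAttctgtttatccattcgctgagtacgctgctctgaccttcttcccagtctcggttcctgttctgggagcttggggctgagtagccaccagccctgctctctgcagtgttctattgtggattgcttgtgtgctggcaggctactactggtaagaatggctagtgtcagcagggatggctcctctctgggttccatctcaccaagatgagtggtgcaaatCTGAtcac
Snora23 (chr7:117189878-117190061, plus strand, in an intron of Ipo7): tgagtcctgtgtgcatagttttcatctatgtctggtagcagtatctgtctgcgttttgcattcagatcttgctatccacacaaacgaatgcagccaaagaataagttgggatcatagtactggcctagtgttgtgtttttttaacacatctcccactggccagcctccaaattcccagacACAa

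The box sequences were present both in snoRNAs that fell and in those that did not. TGATGA was found on the RNA strand in 32 of 51 C/D box snoRNAs with a position (62.7%), in 16 of the 29 called lower and in 16 of the other 22. CTGA within the last 15 bases was found in 46 of the 51, and ACA within the last 12 bases in 28 of 30 H/ACA box snoRNAs. Snord2 had 445 and 452 scaled TPM at 0 h and 191 and 180.2 at 4 h (-1.27 ± 0.13, adjusted p = 0.002). Snord104 had 317 and 350.1 and then 160.1 and 199 (-0.89 ± 0.10, adjusted p = 0.0024), and Snora41 had 187 and 196 and then 87.0 and 94.6 (-1.07 ± 0.07, adjusted p = 0.00061). Snord17 had 812 and 944 at 0 h and 1097 and 915 at 4 h, which overlap (0.19 ± 0.10, adjusted p = 0.15), and Snora23 had 167 and 196 and then 239.6 and 209 (0.31 ± 0.11, adjusted p = 0.055). The other named members were Snord43 (-0.71 ± 0.09), Snord47 (-1.39 ± 0.15), Snora68 (-0.65 ± 0.12), Snora65 (-0.91 ± 0.07) and Snora61 (-0.73 ± 0.06), all called lower.

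Falls were counted by length as well, in bins set after the values were seen. Of 63 snoRNA and Cajal body RNA features under 100 bases, 43 were lower and 37 called lower, with a median of -0.81. Of 29 features of at least 100 and under 140 bases, 21 were lower and 10 called lower (median -0.56). Of 9 features of 140 bases or more, 2 were lower, 2 were higher and 0 were called lower (median 0.13, and -0.09 under quantile normalisation). Lengths are those implied by the TPM steps and can differ from the GENCODE span, so Snora41 counts as 113 bases here while the printed span has 132.

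A snoRNA and its host gene often moved apart. Of 81 tested C/D and H/ACA box snoRNAs with a position, 76 lay within exactly 1 longer tested gene on the same strand, in 54 host genes. In 66 of the 76 the snoRNA changed to a lower value than its host, and of the 40 called lower, 14 had a host that was lower, 10 a host that was higher and 16 a host that did not pass. The contrast was complete for ribosomal protein genes. All 27 snoRNAs within 20 such genes changed to a lower value than the host. The snoRNAs changed by between -1.91 and -0.26, with 23 lower and 15 called lower, while the hosts changed by between 0.16 and 0.37, with 11 higher and 0 lower. This group was singled out after the values were seen. In Rpl13a, Snord35a had 54.2 and 53.8 scaled TPM at 0 h and 23.4 and 18.4 at 4 h (-1.34 ± 0.20, adjusted p = 0.0052), whereas Rpl13a had 2061 and 2265 and then 2629 and 2506 (0.25 ± 0.09, adjusted p = 0.055).

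The difference between snoRNA and host is a ratio within a library, so most scalings leave it in place. The median difference was -0.90 and it stayed between -0.97 and -0.81 under every alternative, with all tested pairs in the same direction in each, except 26 of 27 when either 4 h library was left out. In each pairing of a single 4 h with a single 0 h library it was 26 of 27. The host median itself moved from 0.26 to -0.05 under scaling to RNA polymerase III RNAs and to 0.06 under quantile normalisation. The snoRNAs within the snoRNA host list behaved otherwise: 10 snoRNAs in 6 host RNAs had a median of -0.62 beside a host median of -0.79, and 5 of the 10 lay below their host.

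**Figure D4:**
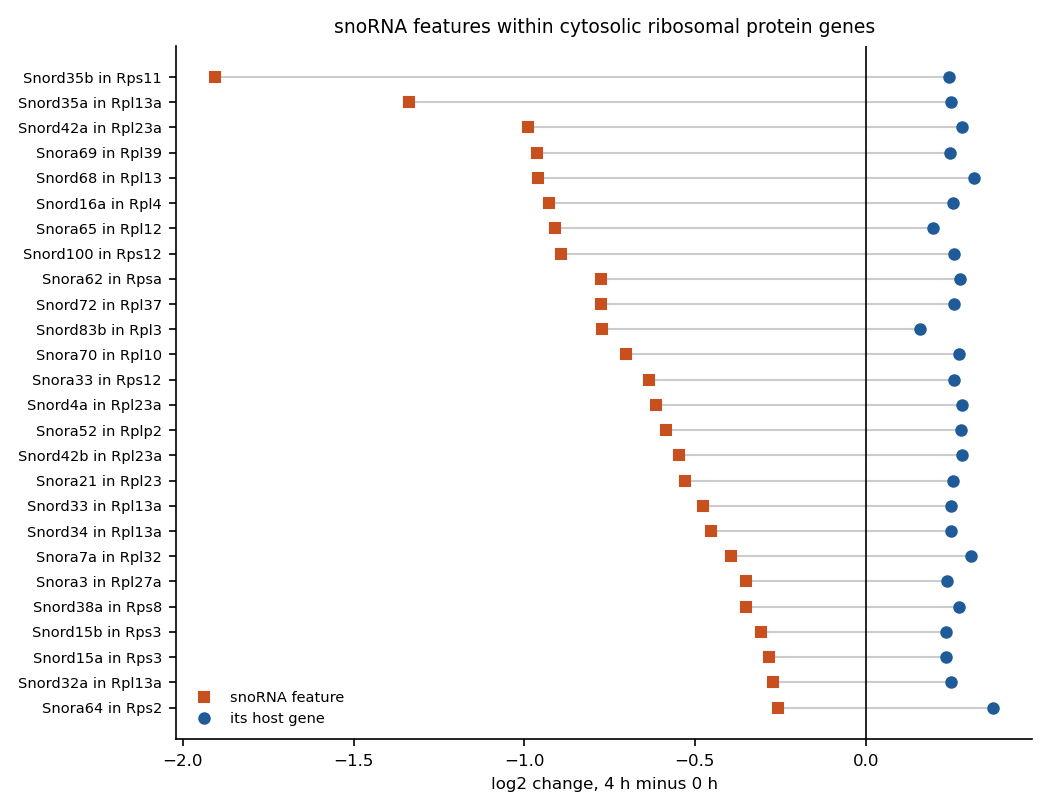
Log2 change at 4 h of 26 of the 27 snoRNA features (squares) and of the ribosomal protein genes that contain them (circles), each row a pair, with changes relative to the size factors. All squares lie below 0, between -1.91 and -0.26, and all circles above 0, between 0.16 and 0.37. The median of all 20 hosts moves to -0.05 under scaling to RNA polymerase III RNAs, while the gap within pairs stays.

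MicroRNA features cover the hairpin precursor of a microRNA, and the reads on them are not reads of the mature microRNA. Of 217 tested, 79 were lower, 72 called lower, 5 higher and 3 called higher, with a median of -0.62. Most rest on few reads, and among the 46 with a mean of at least 20 reads, 24 were called lower and 1 called higher. In the fit that lacked 4 h replicate 1, 26 of the 217 passed as lower. The member with the most reads among those called lower was Mir290 (chr7:3218627-3218709), the first hairpin of the Mir290 cluster, the main microRNA cluster of ESCs. Mir290 had 208 and 223 scaled TPM at 0 h and 78.0 and 92.2 at 4 h (-1.34 ± 0.14, adjusted p = 0.0023), with no overlap. Its fall stands beside that of D7Ertd143e (-1.19 ± 0.10), the lncRNA at the same cluster. Its 2 mature arms are shown from RefSeq (GRCm38.p6), where the locus is named Mir290a, with the seed (bases 2 to 8) in capitals because the seed decides which mRNAs a microRNA can pair with. By an exact match of bases 2 to 8, the seed of the 5p arm was found in 3 of the 1738 mature RefSeq arms searched. For the 3p arm only its own entry matched. Arms missing from that set and partial matches were not counted, so the match does not show that this seed is unique.
mmu-miR-290a-5p: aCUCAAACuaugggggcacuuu
mmu-miR-290a-3p: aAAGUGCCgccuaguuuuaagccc

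Mir669j and Mir669g, near-identical hairpins within an intron of Sfmbt2 on chromosome 2, were also called lower. Mir669j went from 66.6 and 74.6 to 39.4 and 38.7 scaled TPM (-0.84 ± 0.08, adjusted p = 0.002) and Mir669g from 57.1 and 59.9 to 32.7 and 41.7 (-0.65 ± 0.16, adjusted p = 0.015). Their host Sfmbt2 had 61.3 and 58.5 at 0 h and 60.4 and 60.6 at 4 h (0.01 ± 0.04, adjusted p = 0.81). Mir7-1, within an intron of Hnrnpk, went from 35.7 and 43.7 to 19.99 and 21.3 (-0.90 ± 0.18, adjusted p = 0.0089) while Hnrnpk rose from 1051 and 1052 to 1273 and 1232 (0.25 ± 0.05, adjusted p = 0.0089). Of 90 microRNA features within exactly 1 tested host, 72 changed to a lower value than the host, whose median over 55 genes was 0.01. Many of the 90 lie in Sfmbt2 alone, all with lower values than it, so the features are not independent cases. Of the 4 tested microRNA features in Mir17hg, a microRNA primary transcript (-0.83 ± 0.12), Mir18 (-0.87 ± 0.23) and Mir19a (-1.003 ± 0.28) passed as lower. Mir17 (-0.23, adjusted p = 0.40) and Mir20a (-0.47, adjusted p = 0.34), with fewer reads, did not pass. Mir15b, with the largest fall of the list (-2.28 ± 0.26), had between 2 and 22 reads per library.

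Mir1983 was the 1 microRNA feature with at least 20 reads that was called higher, from 38.6 and 36.3 to 68.3 and 53.5 scaled TPM (0.68 ± 0.17, adjusted p = 0.016). Its RefSeq hairpin of 132 bases is shown because it holds GUUCGA, in capitals, the letters of the T arm of many tRNAs, which are products of RNA polymerase III.
Mir1983 hairpin: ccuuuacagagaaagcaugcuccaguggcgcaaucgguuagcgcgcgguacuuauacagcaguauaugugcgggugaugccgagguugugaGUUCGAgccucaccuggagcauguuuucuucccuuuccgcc
GUUCGA was searched on the hairpin strand and was present in 7 of 1005 hairpins in the table (0.697%) and in 2 of the 171 tested features that matched it by symbol. The other was Mir434, with a change of -0.47.

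The few products of RNA polymerases III and I listed here were not among the RNAs that fell. Of 7 tested RNAs on the RNA polymerase III list, 3 were higher and 0 lower, with a median of 0.28 (0.02 under quantile normalisation). The 3 were Rprl1 (0.78 ± 0.12, between 2 and 6 reads per library), Rprl2 (0.54 ± 0.11) and Rprl3 (0.30 ± 0.10), genes named for RNase P RNA. Rmrp had 54216 and 59793 scaled TPM at 0 h and 72326 and 67327 at 4 h (0.29 ± 0.20, adjusted p = 0.26), and Rpph1 had 70296 and 74750.4 and then 91568 and 89211 (0.32 ± 0.21, adjusted p = 0.25). Rn45s, the precursor of ribosomal RNA, a product of RNA polymerase I, rose from 127 and 138 to 164 and 177 (0.36 ± 0.07, adjusted p = 0.007). The authors removed reads that match ribosomal or transfer RNA before counting. The level of Rn45s is therefore not that of the cell, and transfer RNAs are not covered here.

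The 5 members of the list of spliceosomal, telomerase and other structured RNAs, to which Rn45s belongs by symbol, were divided, with 3 lower and 2 higher. The minor spliceosomal RNA Rnu11 went from 109.7 and 118 to 59.98 and 57.1 scaled TPM (-0.95 ± 0.11, adjusted p = 0.0027), Rnu12 from 101 and 133 to 88.9 and 79.2 (-0.46 ± 0.16, adjusted p = 0.044), and Terc, the telomerase RNA, rose from 312 and 426 to 516 and 465 (0.42 ± 0.13, adjusted p = 0.031). Rnu73b, which is in the same list by its symbol, changed by -0.87 ± 0.12 (adjusted p = 0.0052). Of 8 Cajal body RNAs, which guide the modification of spliceosomal RNAs, 5 were higher and 0 lower (median 0.21, and 0.05 under quantile normalisation), with Scarna2 (0.38 ± 0.13), Scarna9 (0.32 ± 0.09) and Scarna13 (0.31 ± 0.10) the largest. Without 0 h replicate 1, 0 Cajal body RNAs and 2 RNA polymerase III RNAs passed as higher.

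The longer features that fell differed from those that rose in gene structure and level. The 127 called lower had a median of 3 exons in their longest GENCODE transcript, those lower by less than 1.5-fold 6, and those higher 9, which is also the median of those that did not pass. Of the called lower features with exons annotated, 15.3% had a single exon, compared with 0.708% of those that rose. The median change relative to all longer features went from -0.24 in genes with 1 exon to -0.16 with 2, -0.06 with 3 to 4, 0.02 with 5 to 8 and 0.03 with 9 to 16. By level, 70.1% of the 1590 longer features over 100 TPM were higher and 5.66% lower, whereas in the 3473 between 5 and 20 TPM 8.93% were higher and 23.3% lower. These shares depended on 4 h replicate 1, without which the features over 100 TPM that passed as higher went from 1115 to 38 and the single-exon features that passed as lower from 118 to 26. The median change of features over 100 TPM was 0.19, and 0.02 under quantile normalisation, which forces the libraries to the same distribution of values. Exon number, level and gene class are not independent, and their separate parts were not tested.

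**Figure D5:**
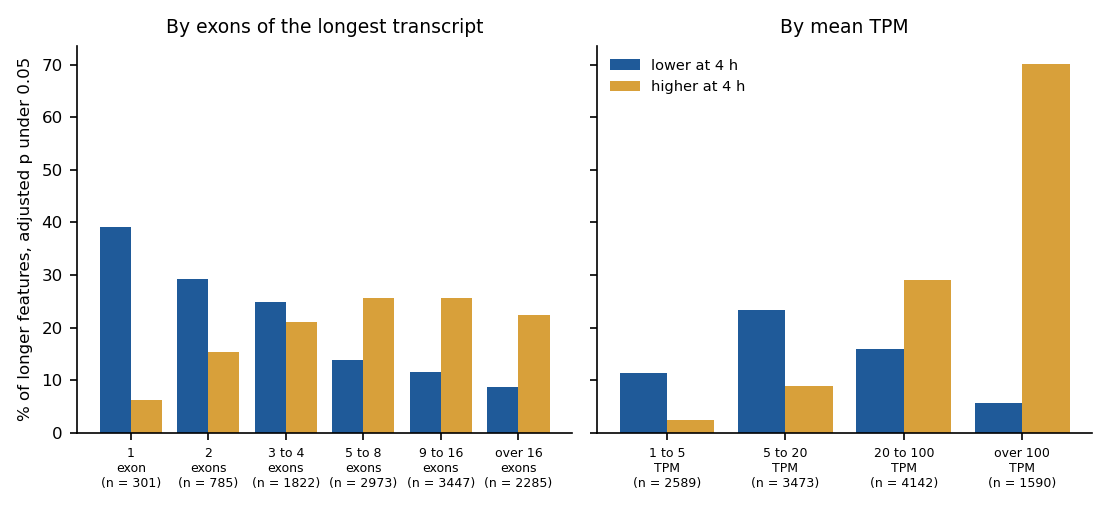
Percent of longer features lower (blue) and higher (ochre) at 4 h at an adjusted p under 0.05, by exons of the longest transcript (left) and by mean TPM (right). Falls become rarer with more exons, from 39.2% at 1 exon to 8.71% above 16 exons, and rises more frequent with level, up to 70.1% above 100 TPM. Without 4 h replicate 1, 26 single-exon features passed as lower and 38 features above 100 TPM as higher. The rises are relative to the size factors, and scaling to RNA polymerase III RNAs left 10 longer features higher.

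A motif of short-lived mRNAs was also more frequent among longer features that were lower than among those that were higher. The nonamer TTATTTATT is the core of the AU-rich element, a binding site of decay proteins such as tristetraprolin in the 3′ end of mRNAs. It was searched on the RNA strand of the longest GENCODE 3′ end and was present in 843 of 11239 longer features with one (7.50%). It was present in 10 of 89 called lower (11.2%) and 188 of 1588 lower by less than 1.5-fold (11.8%). It was present in 3.20% of those higher and 8.11% of those not passing. Longer 3′ ends hold it more often, so it was also counted within length bins. In 3′ ends of over 500 and up to 1000 bases, 28.3% of 92 features with the nonamer were lower and 14.1% higher, compared with 13.2% and 28.2% of 2215 without it. Up to 500 bases, the shares were 23.1% and 17.9% of only 39 with it and 9.94% and 34.4% of 2778 without. Over 1000 and up to 2000 bases, they were 26.3% and 12.3% of 236 with it and 15.8% and 21.1% of 2739 without. Over 2000 bases, they were 21.2% and 7.56% of 476 with it and 17.9% and 15.5% of 2664 without. The median change was lower with the nonamer in all 4 length bins. Level was not held fixed, and the features that were higher had a median level of 80.0 TPM, compared with 18.9 among all longer features. The nonamer counts were not repeated under other scalings or with single libraries left out. Chac1 and the phosphatase gene Dusp1, the latter chosen after its values were seen, are shown as called features that hold it, with the nonamer in capitals, from NCBIM37.
Chac1 (chr2:119179509-119179537, plus strand): acttgaacctTTATTTATTgcaccatgtt
Dusp1 (chr17:26643104-26643132, minus strand): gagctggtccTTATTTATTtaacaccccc
Dusp1 had 22.6 and 21.3 scaled TPM at 0 h and 12.8 in both 4 h libraries (-0.73 ± 0.07, adjusted p = 0.002).

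The TKO libraries entered the fit through its estimate of the spread, and give a second set of values for the same 127 called longer features, all of which were among the 157 called with WT libraries only. In TKO ESCs 125 of the 127 had a log2 change below 0, and in 119 both 4 h libraries lay below both 0 h libraries, compared with 25.7% of all longer features. Their median change was -0.38 in TKO and -0.65 in WT, where the genes were chosen for a large fall. Sox2 changed by -0.43 in TKO, Klf6 by -0.59, Gas5 by -0.63 and Snord2 by -0.62. No longer feature passed limma's test of the difference between genotypes (0 at an adjusted p under 0.05, smallest adjusted p over all tested genes 0.494), while 828 had an unadjusted p under 0.05.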

How the data were processed

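Per the labels and the study's methods, RNA of WT and TKO ESCs was ribodepleted and sequenced as strand-specific paired-end libraries of 150 bases. The authors removed low-complexity, ribosomal and transfer RNA reads, aligned the rest to mm9 with STAR and RefSeq genes, counted them with HTSeq and deposited TPM values per gene. Tool versions, and whether HTSeq used strand, are not given in the sources used here. Genes that overlap, antisense genes and near-identical copies can therefore share reads.

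Each library's TPM were scaled by a size factor (median of ratios) and analysed as log2(scaled TPM + 1) with limma 3.58.1 (R 4.3.3) with a variance trend, over 8 ribodepleted libraries in 4 groups. Genes with a mean over 1 TPM in the 4 WT libraries were tested, with p-values adjusted by the Benjamini-Hochberg method over all 12134. A call needed an adjusted p under 0.05 and over 1.5-fold. Folds of low genes are understated on this scale. The other summaries used Python 3.11.15. The fit was tested on simulated data.

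Reads were recovered from the steps of the TPM values, and their totals gave the depth. 2 libraries per time allow no exact test below 0.05, so all p-values come from limma.

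The members and 59 gene lists were chosen with earlier results of these data known. Text names 10 fixed genes, the 12 largest falls and 6 largest rises among called longer features over 5 TPM without overlap, up to 3 members per list and direction at the adjusted p (or the 2 most abundant), the 3 short features per list called lower with most reads, and the 5 most abundant. Others are marked as chosen after their values were seen, and so are Snord35a, Rpl13a, Snx5, Ipo7, Eef1b2, Sfmbt2, Hnrnpk, Mir7-1, Mir17, Mir18, Mir19a, Mir20a and 2410006H16Rik. Alternatives were other scalings, pseudocounts, filters, sample sets, a replicate block, no trend, voom on recovered reads, and leaving out each library. A few named results, and 1 pair of the snoRNA plot, are not reported here.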

Additional observations from a re-analysis of the deposited data

How the results depend on the processing

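Counts of longer features called lower and higher, 127 and 7 as reported, were 431 and 2 with the deposited TPM, 1124 and 2 with scaling to RNA polymerase III RNAs, 106 and 32 with quantile normalisation, 250 and 20 with a pseudocount of 0.1, 42 and 0 with a pseudocount of 5, 279 and 25 with voom on recovered reads, 114 and 1 with a mean over 5 TPM, and 1849 and 2695 with no limit on size. At any size they were 2998 lower and 410 higher with the deposited TPM, 5312 and 10 with RNA polymerase III scaling and 1366 and 1601 with quantile normalisation. Short features called lower were 201 with RNA polymerase III scaling, 82 with no filter and 72 with at least 20 reads, against 124 as reported. Few reads per short feature limit the precision of their values. Short features called higher were 2 with the deposited TPM, RNA polymerase III scaling, a pseudocount of 0.1, no filter or voom, 1 with a pseudocount of 5, a mean over 5 TPM or at least 20 reads, and 15 with no limit on size, against 4 as reported. Leaving out 1 WT library gave 81 to 178 longer features called lower and 1 to 21 called higher, 259 to 1112 lower and 112 to 1716 higher at any size, and 65 to 94 short features called lower and 3 to 7 called higher. Leaving out 1 TKO library gave 131 to 136 and 6 to 7 longer features called, 1522 to 2229 lower and 1916 to 3151 higher at any size, and 130 to 132 and 4 to 5 short features. The TKO omissions and the minimum of 20 reads were chosen after seeing the data. A mean over 5 TPM or a minimum of 20 reads tests fewer features and a pseudocount of 5 shrinks low genes' changes by construction, and elsewhere the cause was not tested.

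A fit with the replicate block called 129 longer features lower and 7 higher, 1854 lower and 2739 higher at any size, and 131 and 5 short features. The deviations of same-numbered WT libraries had a correlation of 0.06 across genes. Whether same-numbered libraries were grown or prepared together is not stated in the sources used here, and this correlation cannot settle it. Scarna2, Rprl3, Rnu12 and Rplp1 missed the threshold under the block, and the other named genes stayed on their side of it.

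Relative to the median of longer features, quantile normalisation reversed Eed (-0.14), Jarid2 (-0.070), Dab1 (0.059), Etv5 (-0.018), Rprl3 (-0.0036), Eef1a1 (-0.047), Rpl13a (-0.022), Hnrnpk (-4.3e-05), Snord17 (-0.033), Rmrp (-0.047) and Rpph1 (-0.047). Dab1, with -0.016 as reported, was 0.014 with RNA polymerase III scaling, 0.014 with no filter, and -0.12 (without WT 0 h replicate 1) to 0.091 (without WT 0 h replicate 2) with 1 library left out. Sfmbt2, with -0.020 as reported, was 0.013 with no filter, and -0.049 (without WT 0 h replicate 2) to 0.013 (without WT 0 h replicate 1) with 1 library left out. Neither gene passed the test as reported. Of 58 class medians, 11 changed sign under at least 1 alternative, 6 of them only under quantile normalisation. Of 1629 values of named genes under alternatives that keep every library, 1500 kept direction and side of the threshold, 85 missed the threshold, 30 newly passed and 14 changed direction.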
